A study of Trametes cinnabarina with 16 samples.

Results

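Cultures of a white-rot fungus on poplar were compared with cultures given no energy source, in 6 of the 16 libraries of the series, 3 on poplar and 3 controls. The libraries were chosen by their column names and titles, which give the energy substrate, and no measured value entered that choice. The fungus is Pycnoporus cinnabarinus, strain PB94, whose current name is Trametes cinnabarina. The poplar group had poplar as its energy substrate in semi-minimal medium, and the control group had the same medium with no energy substrate. All cultures were started from a cube of overgrown agar and whole-organism RNA was taken. The other 10 libraries of the series, from cultures on switchgrass (3), cellobiose (3), maltose (3) and glucose (1), are used here as levels beside the comparison. Nothing in the labels says that the replicates were separate cultures, and p-values then reflect only how far these libraries vary, which may be technical variation.

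White-rot fungi are basidiomycetes that break down all main polymers of wood. They secrete oxidative enzymes such as laccases and peroxidases that act on lignin, and hydrolases that release sugars from cellulose and hemicellulose. Poplar wood therefore offers a mixture of polymers, while a culture without an energy source depends on its reserves and on what the medium and the inoculum carry. Which of these enzymes are among the genes below could not be said. The tables name assembled genes by assembly identifiers only, none of which (0) matched the 10441 genes of the reference list, and no sequence of these transcripts was in the sources used here. The cultures could not be checked by marker genes for the same reason.

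Library preparation differed with the substrate. Per the labels, ribosomal RNA was removed with a depletion kit for the poplar and switchgrass libraries, while a standard mRNA (poly-A) protocol was used for the control and sugar libraries. Poplar and preparation cannot be told apart in any comparison with control. The 16 columns are also deposited a second time with the same values under other names (0 of 16 names agree). The names of the table whose title speaks of counts are used throughout; under the other names the columns called poplar here are called control, the cellobiose columns are called poplar, and most directions below turn around.

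Levels are in TPM, a length-corrected abundance that sums to 1000000 in every library. Read depth cannot be recovered from TPM. It is unknown here, and intervals for counting error are not given. A value of 0 is reported as listed at 0, since it may be a failed estimate. Isoforms were summed to 27990 genes, and the 17631 genes with at least 1 TPM in at least 3 of the 6 libraries were tested.

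A few genes held much of the RNA on poplar. In each library the top 10 genes by level were summed, and they held 35.1%, 75.3% and 30.7% of TPM in poplar libraries 1, 2 and 3, against 8.09%, 6.57% and 8.84% in control libraries 1, 2 and 3. Values per library are given in this order throughout. The groups did not overlap, and the second poplar library stood well above the others. The same measure was 25.6%, 27.4% and 50.8% in the switchgrass libraries. It was 83.7% in the third maltose library and 6.92% to 12.7% in the other sugar libraries, so a high share was not particular to poplar. It took 20, 2 and 101 genes to hold 50% of TPM in the poplar libraries, against 575, 600 and 514 in the control libraries. These abundant genes were partly shared between the poplar libraries: 17 genes were among the 10 most abundant of at least 1 poplar library, and 5 of them were among the 10 most abundant of all 3. The same 17 genes held 39.7%, 78.1% and 33.0% of TPM in the poplar libraries, against 1.03%, 0.781% and 0.910% in the control libraries. In the switchgrass libraries they held 25.7%, 27.6% and 52.4%. The 13 genes most abundant in control by the same measure held 4.98%, 2.08% and 1.67% of TPM in poplar and 8.74%, 7.32% and 9.56% in control, and 1 gene was in both sets. All of these genes were picked by their levels here, so their shares are a description.

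**Figure D1:**
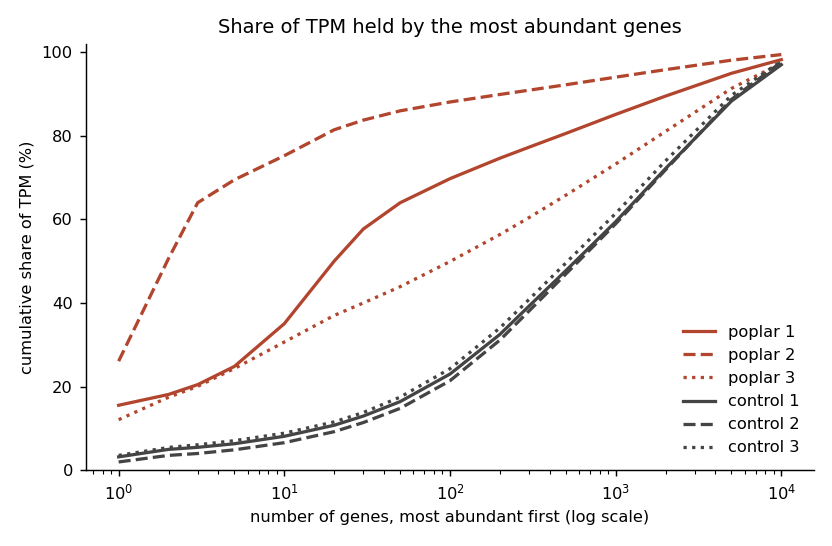
Cumulative share of TPM (%, vertical axis) against the number of genes counted from the most abundant (log scale, horizontal axis) for the 3 poplar and the 3 control libraries, 1 line each. The poplar lines lie above the control lines at every rank drawn up to 5000, with 75.3% of the second poplar library in its 10 most abundant genes against 8.09%, 6.57% and 8.84% in the control libraries.

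The most abundant gene of the first and of the third poplar library was the same. It stood at 155205, 245672 and 120747 TPM in the poplar libraries, against 816, 388 and 553 TPM in the control libraries. In the switchgrass libraries it was at 33531, 33858 and 272584 TPM. The most abundant gene of the second poplar library was at 21912, 260793 and 53608 TPM on poplar, against 2412, 1481 and 2018 TPM in control. Both genes were called higher in poplar. One gene was the most abundant in all 3 control libraries. It had 2482, 580 and 29.1 TPM in the poplar libraries, against 31700, 19523 and 35200 TPM in the control libraries. The groups did not overlap, but the poplar values spread widely, and the gene did not pass the test on both scalings.

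Because TPM is a share, abundant genes lower the TPM of all others. Median-of-ratios scaling divides each library by the median of its genes' ratios to their geometric mean over the 6 libraries, here over 14716 genes above 0 in all of them. The factors were 0.657, 0.276 and 1.22 for the poplar libraries, against 1.67, 1.70 and 1.64 for the control libraries. With the 17 abundant poplar genes taken out of the totals they were 0.724, 0.836 and 1.21 for poplar and 1.12, 1.14 and 1.10 for control. The factor of the second poplar library therefore lay far below the others only while those genes were counted. The comparison was made both on TPM as deposited and after scaling, and the genes called in the same direction both times are described below.

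On poplar 836 genes were higher and 4157 were lower than in control on both scalings. They were 4.74% and 23.6% of the genes tested, 28.3% together. The median over genes of the group mean was 24.1 TPM for the 836 higher genes in poplar and 1.20 TPM in control. For the 4157 lower genes the median was 7.17 TPM in poplar and 50.7 TPM in control. Over all genes tested it was 5.09 TPM in poplar and 10.7 TPM in control. The higher genes held 62.7%, 71.6% and 41.6% of TPM in the poplar libraries, against 0.747%, 0.637% and 0.683% in the control libraries. The lower genes held 7.09%, 2.85% and 12.7% of TPM in the poplar libraries, against 55.5%, 56.7% and 54.9% in the control libraries. The higher genes thus took up a large part of the TPM on poplar. The lower genes, which made up over 50% of the control TPM, took a small part. Both sets were called from these same 6 libraries, so the direction follows from the call and the shares are a description.

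Genes were tested by limma on log2(TPM + 1) in the 6 libraries, with a variance prior that follows the level, with Benjamini-Hochberg adjustment over all genes and calls at an adjusted p under 0.05. On TPM as deposited 855 genes were higher and 6632 lower (4.85% and 37.6% of those tested, 42.5% together), and the median log2 difference of all genes was -1.11. After scaling 3081 genes were higher and 4157 lower (17.5% and 23.6%, 41.1% together), and the median was -0.05. No gene (0) was called in opposite directions by the 2 scalings: each of the 4157 genes lower after scaling was also lower as deposited, and 836 of the 855 genes higher as deposited were higher after scaling. The remaining calls, 2475 lower ones as deposited and 2245 higher ones after scaling, rest on the choice of scaling. The groups did not overlap after scaling in 56.9% of the genes tested.

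The counts depended on single libraries. With poplar library 1, 2 or 3 left out, 335, 863 and 719 genes were higher and 3331, 3712 and 5385 lower on both scalings. With control library 1, 2 or 3 left out, 532, 508 and 501 were higher and 2149, 1986 and 2089 lower. Without the second poplar library, in which the abundant genes took up most, the 836 higher genes kept 492 calls and the 4157 lower genes kept 3507. No higher gene became a lower one, or the reverse, in any of these fits.

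Which direction had the larger called differences depended on the scaling. After scaling the median log2 difference was 3.62 for the higher genes, with quartiles of 2.84 and 4.97, and -1.40 for the lower genes, with quartiles of -2.01 and -1.01. On TPM as deposited the medians were 2.53 for the higher genes and -2.64 for the lower genes, so the order of their sizes turned. As deposited 118 higher genes and 215 lower genes differed by more than 5 on the log2 scale. Differences on the log2(TPM + 1) scale understate the change of low genes.

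Lower genes were found mostly among the better expressed ones. Among genes with a mean under 3 TPM over the 6 libraries, 184 of 5094 were higher (3.61%) and 268 lower (5.26%). Between 30 and 100 TPM 148 of 2987 were higher (4.95%) and 1354 lower (45.3%). At 300 TPM and over 56 of 426 were higher (13.1%) and 228 lower (53.5%). The median log2 difference after scaling over all genes of a bin went with this order: it was 0.40 under 3 TPM, 0.12 from 3 to 10 TPM, -0.29 from 10 to 30, -0.62 from 30 to 100, -0.87 from 100 to 300 and -1.12 from 300 TPM up. The scaling factor is set by the median gene, so it lies between the levels at which genes were on balance higher and on balance lower in poplar. The bins rest on TPM as deposited in these same 6 libraries. Most genes were lower in poplar on that scale, so control levels weigh more in the bins. The 1 TPM added before the logarithm also leaves little room for a lower call in the lowest bin. Of the calls made after scaling, the rule of both scalings dropped 2245 higher ones and 0 lower ones. The higher shares in the bins are therefore reduced by that rule and the lower shares are not. How far the trend with level rests on these choices was not tested.

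**Figure D2:**
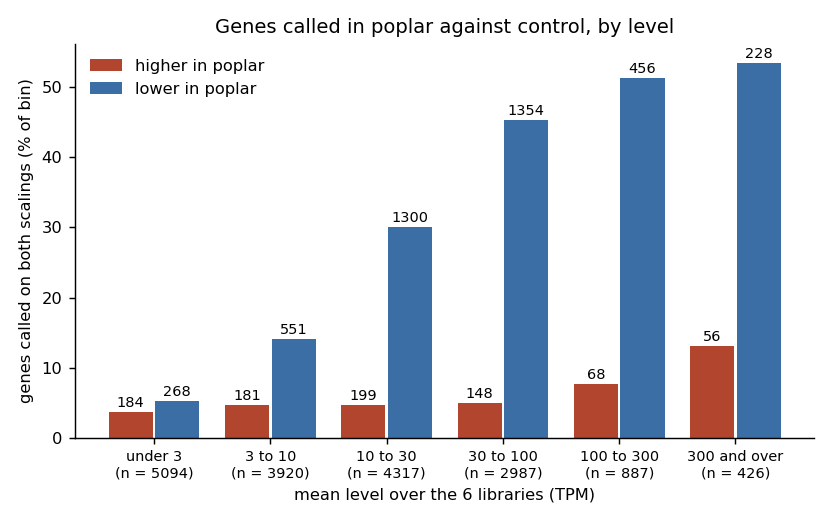
Share of genes called on both scalings (%, vertical axis) in bins of the mean level over the 6 libraries (TPM, horizontal axis), with the higher genes left and the lower genes right in each bin and the number of genes above each bar. The lower calls make up 5.26% of the genes under 3 TPM and 53.5% of those at 300 TPM and over. Of the calls made after scaling, the rule of both scalings dropped higher ones only.

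Among the genes higher in poplar, TR355__c0_g1 had the widest gap between the groups, and TR15410__c0_g1 the widest among genes above 0 in all 6 libraries. TR355__c0_g1 had 13764, 4746 and 11706 TPM in the poplar libraries, against 1.88, 1.91 and 0 TPM in the control libraries. The lowest poplar library stood far above the highest control library, and in the poplar libraries it ranked 15th, 18th and 8th of all genes. Its log2 difference was 12.14 ± 0.70 (SE) on TPM as deposited (limma adjusted p = 3.92e-10) and 13.16 ± 0.42 after scaling (adjusted p = 4.44e-05). As deposited, the limma adjusted p was 1.74e-59 with a filter of 5 TPM and 0.000363 without the second poplar library. The size of the p as deposited thus hung on the settings, also for the other named genes, and does not grade the evidence for 1 gene. TR15410__c0_g1 had 12714, 3144 and 3289 TPM in the poplar libraries, against 1.12, 0.72 and 1.12 TPM in the control libraries. All 3 poplar libraries were high, the first of them highest, and the control libraries were all near 1 TPM. Its log2 difference was 11.33 ± 0.69 as deposited (adjusted p = 4.68e-10) and 12.37 ± 0.69 after scaling (adjusted p = 0.000162).

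The sugar cultures, which share the preparation of the control, were also low in these genes. TR355__c0_g1 was at 8.17, 5.59 and 7.49 TPM in cellobiose, 22.0 TPM in the glucose library and 6.42, 1.93 and 0 TPM in maltose. TR15410__c0_g1 was at 0.87, 1.05 and 1.66 TPM in cellobiose, 1.09 TPM in glucose and 0.39, 0.87 and 0 TPM in maltose. In switchgrass TR355__c0_g1 was at 37101, 27155 and 8379 TPM and TR15410__c0_g1 at 3532, 7713 and 5368 TPM. Both genes thus split the 16 libraries along the preparation as well as along the kind of substrate.

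Among the lower genes TR17256__c0_g1 had the widest gap, and TR5381__c0_g1 the next widest among genes above 0 in all 6 libraries. TR17256__c0_g1 had 1.29, 0.55 and 3.17 TPM in the poplar libraries, against 2113, 4266 and 2600 TPM in the control libraries. It ranked 27th, 5th and 18th of all genes in the control libraries, and every poplar library was below 4 TPM. Its log2 difference was -10.19 ± 0.67 as deposited (adjusted p = 7.41e-10) and -9.08 ± 0.27 after scaling (adjusted p = 4.44e-05). TR5381__c0_g1 had 0.90, 0.18 and 2.04 TPM in the poplar libraries, against 1484, 3132 and 1874 TPM in the control libraries. Its log2 difference was -10.08 ± 0.66 as deposited (adjusted p = 7.41e-10) and -9.14 ± 0.32 after scaling (adjusted p = 4.44e-05).

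These genes kept nearly the same proportion to each other in most libraries. The level of TR17256__c0_g1 was 1.43, 3.06 and 1.55 times that of TR5381__c0_g1 in the poplar libraries, against 1.42, 1.36 and 1.39 times in the control libraries. Over the 10 poly-A libraries this ratio ranged from 0.862, in the third maltose library, to 1.64. Whether the pair shares reads, as near-identical copies would, could not be checked without their sequences.

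Both genes lay between poplar and control in the sugar cultures. TR17256__c0_g1 was at 98.2, 409 and 330 TPM in cellobiose, 576 TPM in glucose and 962, 922 and 39.8 TPM in maltose. TR5381__c0_g1 was at 60.0, 282 and 245 TPM in cellobiose, 367 TPM in glucose and 657, 633 and 46.2 TPM in maltose. All 7 sugar libraries were below every control library and above every poplar library in both genes. In switchgrass TR17256__c0_g1 was at 1.24, 4.02 and 11.02 TPM and TR5381__c0_g1 at 0.99, 2.47 and 10.5 TPM. The sugar libraries share the preparation of the control, and the switchgrass libraries that of poplar. The differences of the sugar cultures from control and from poplar were not tested here. The part of preparation in these 2 genes, which were picked by their gap, was not tested either.

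**Figure D3:**
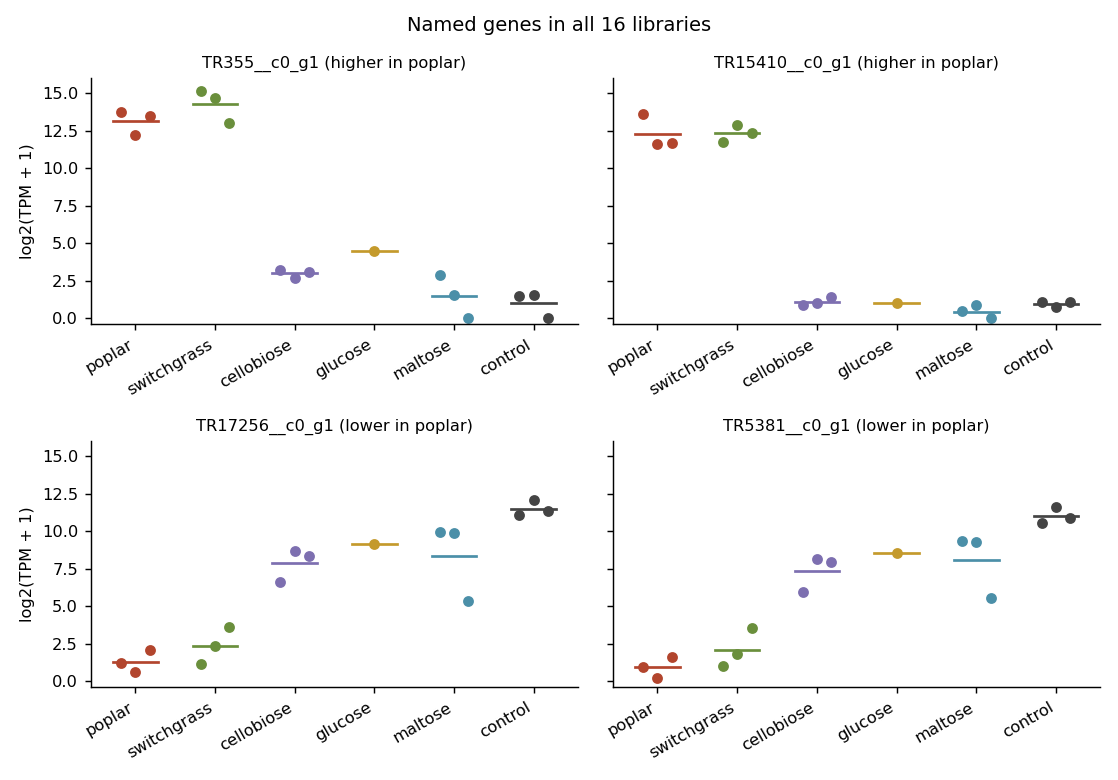
Level of the 4 named genes, log2(TPM + 1) on the vertical axis, in the 16 libraries by culture on the horizontal axis, with points for libraries and lines for the group mean of the log values. TR355__c0_g1 and TR15410__c0_g1 are at or above 3144 TPM in all 6 plant libraries and at or below 22.0 TPM elsewhere, and TR17256__c0_g1 and TR5381__c0_g1 are at or below 11.02 TPM in the plant libraries.

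Some genes were detected in 1 group only. On poplar 136 genes had at least 1 TPM in all 3 libraries and were listed at 0 in all 3 control libraries. These were 0.771% of the 17631 genes tested. Their median was 5.66 TPM in poplar (group mean), 15 of them averaged at least 100 TPM, and the highest averaged 13507 TPM. They held 4.19%, 4.57% and 0.573% of TPM in the poplar libraries. In the opposite direction there were 255 of the 17631 genes. They had at least 1 TPM in all 3 control libraries and were listed at 0 in all 3 poplar libraries. Their median was 4.92 TPM in control, 13 averaged at least 100 TPM, and the highest averaged 435 TPM. They held 0.623%, 0.415% and 0.331% of TPM in the control libraries. No fold is given for genes of either kind.

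The levels of these genes in the other cultures are given as a description, since matching counts over all genes were not taken. Of the 136 genes listed at 0 in control, 53 reached at least 1 TPM in a sugar library and 44 were listed at 0 in all 7 sugar libraries as well. In switchgrass 67 of the 136 had at least 1 TPM in all 3 libraries and 10 were listed at 0 in all 3. Of the 255 genes listed at 0 on poplar, all 255 reached at least 1 TPM in a sugar library. They were chosen for at least 1 TPM in all 3 control libraries, which share the preparation of the sugar libraries. In switchgrass 150 of them were listed at 0 in all 3 libraries and 2 had at least 1 TPM in all 3. Counts of zeros depend on depth, which is unknown: 5467, 9915 and 6399 of all 27990 genes were listed at 0 in the poplar libraries, against 4965, 6372 and 6612 in the control libraries.

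The levels of the called genes were then read in the cultures that the call did not use. The 836 higher genes had library medians of 24.1, 9.71 and 23.6 TPM in poplar and 1.36, 1.24 and 1.17 TPM in control. Their medians were 1.42, 1.66 and 1.63 TPM in cellobiose, 1.12 TPM in glucose and 1.04, 1.07 and 0 TPM in maltose. In switchgrass they were 29.0, 10.3 and 17.0 TPM. In 34 of the 836 genes (4.07%) the mean of at least 1 sugar culture reached the poplar mean, against 80.4% of all genes tested. In 188 (22.5%) the highest of the 7 sugar libraries reached the lowest poplar library, against 94.9% of all genes tested. The higher genes were mostly low in every poly-A culture, with a minority at poplar levels in some of them. They were chosen for high levels in these same poplar libraries. Their distance from all genes tested follows in part from that choice, so these shares describe them and carry no test.

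The 4157 lower genes had library medians of 6.28, 2.68 and 11.9 TPM in poplar and 50.7, 51.4 and 45.3 TPM in control. Their medians were 41.8, 40.5 and 42.7 TPM in cellobiose, 47.0 TPM in glucose and 47.8, 42.6 and 3.29 TPM in maltose. In switchgrass they were 11.8, 13.6 and 6.74 TPM. Apart from the third maltose library, in which 83.7% of TPM lay in 10 genes, the sugar cultures were close to control in these medians. In 3462 of the 4157 genes (83.3%) the lowest of the 7 sugar libraries was at or below the highest poplar library, against 94.9% of all genes tested. Without the third maltose library this held for 445 genes (10.7%), against 61.3% of all genes tested. The lower genes thus mostly stood above poplar in those 6 sugar libraries and not in the third maltose library. They were chosen for low levels in these same poplar libraries, and the levels compared are TPM as deposited. These shares therefore describe the genes and carry no test. The part of preparation in either group of genes was not tested.

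**Figure D4:**
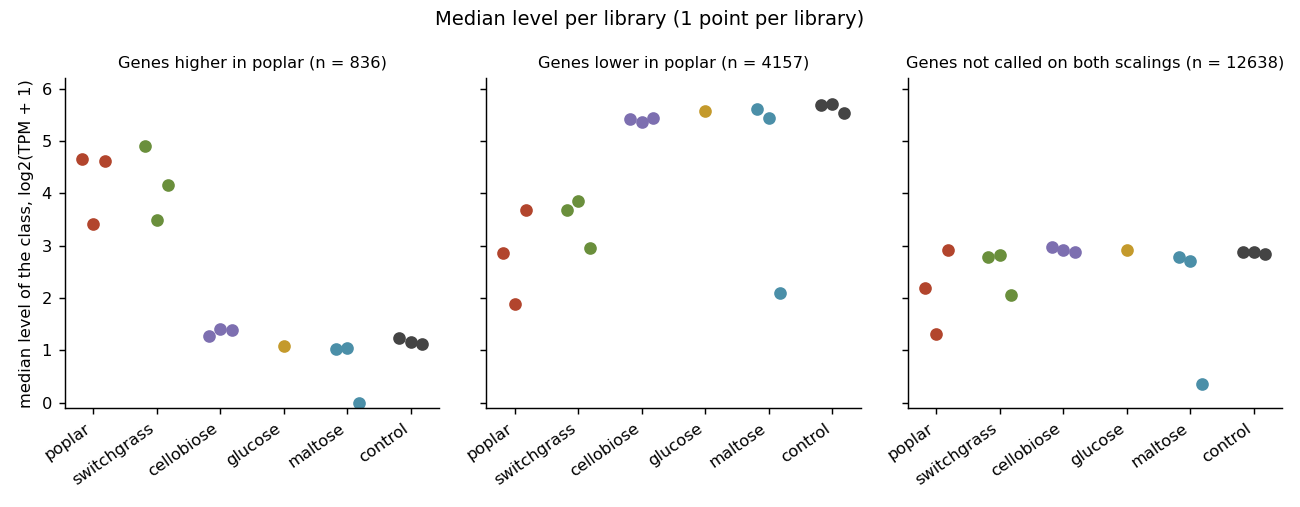
Median level over the genes of a class, log2(TPM + 1) on the vertical axis, in each of the 16 libraries by culture on the horizontal axis, for the 836 higher genes, the 4157 lower genes and the 12638 genes not called on both scalings. In the first panel the poplar and switchgrass libraries lie above all others, and in the second they lie below all others except the third maltose library.

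Poplar and switchgrass share a preparation, and this was the one comparison of poplar within it. After scaling 1 of 16875 genes differed between them (0.00593%, limma). At an unadjusted p under 0.05 there were 848 genes, about the share that this threshold passes where no gene differs. The 1 gene called was TR7964__c0_g1, which falls outside the rule for named genes and was picked with its values in view. It had 1.33, 0.14 and 0.70 TPM in the poplar libraries, against 108, 99.0 and 66.9 TPM in the switchgrass libraries. The groups did not overlap, and its log2 difference was -5.41 ± 0.34 (adjusted p = 0.0231). It was at 20.1, 28.1 and 14.4 TPM in control and between 17.8 and 41.7 TPM in the sugar libraries other than the third maltose library, which had 0.19 TPM. It was also called lower in poplar than in control (limma adjusted p = 9.92e-05 as deposited and 0.00264 after scaling). The part of preparation in this gene was not tested. The call against switchgrass ended when any 1 of the 6 libraries was left out. On TPM as deposited 6 genes were higher and 19 lower in poplar than in switchgrass, of which 3 were among the 836 and 8 among the 4157.

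Differences from switchgrass were small beside those from control. Among the 835 higher genes tested in both comparisons the median size of the log2 difference was 3.63 against control and 0.752 against switchgrass, after scaling. Among 3479 lower genes it was 1.31 against control and 0.277 against switchgrass, and among all 15168 genes tested in both it was 0.827 and 0.330. The signed median of poplar minus switchgrass was 0.56 in the higher genes, -0.12 in the lower genes and 0.05 in all genes tested in both. Above 0 were 616 of 835 higher genes, 1300 of 3479 lower genes and 8201 of all 15168. The higher and lower genes were chosen for a large difference of the same poplar libraries from control, so these values describe them and carry no test. So few calls do not show that poplar and switchgrass acted alike.

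The poplar libraries differed more among themselves than the control libraries. After scaling the median SD of log2 levels over the genes tested was 0.471 in poplar and 0.182 in control. In the 836 higher genes it was 0.788 in poplar and 0.166 in control, and in the 4157 lower genes 0.298 in poplar and 0.149 in control. The third poplar library was the lowest of the 3 in 572 of the 836 higher genes after scaling, and in 6414 of all 17631 genes tested. On TPM as deposited the second was the lowest in 595 of the 836 and in 14974 of all 17631. Spearman correlations across the genes tested averaged 0.850, 0.848 and 0.800 between poplar library 1, 2 and 3 and the other 2 of the group, and 0.951, 0.957 and 0.953 among the control libraries. With the switchgrass libraries the poplar libraries averaged 0.799, 0.798 and 0.821, so the third poplar library was about as near to switchgrass as to its own group. With the control libraries they averaged 0.650, 0.648 and 0.651. Genes are not independent replicates, and these correlations are given as a description.

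Isoform composition also differed between poplar and control. The share of an isoform in its gene does not move with the scaling of a library. Of 4457 isoforms of 1247 genes with at least 5 TPM in all 6 libraries, 366 isoforms of 232 genes differed in share (8.21% of those tested; limma on the arcsine square root of the share), 190 with a higher and 176 with a lower share on poplar. The median size of a called difference was 19.9 percentage points, 182 differed by over 20 points and 25 by over 50 points. Of the 232 genes 13 were higher and 36 lower in level on both scalings (5.603% and 15.5%), against 4.09% and 19.5% of the 1247 genes, and 183 were called in neither direction. Isoforms are those of the assembly, and whether they are splice forms, alleles or assembly fragments was not tested.

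The largest gain and the largest loss show the size of these changes, and were picked by that size. TR2858__c1_g1_i2, 1 of 3 isoforms of its gene, made up 85.6%, 75.1% and 77.3% of the gene in the poplar libraries, against 3.07%, 3.44% and 2.89% in the control libraries (adjusted p = 0.000783). It made up 69.7%, 74.5% and 82.4% in switchgrass and at most 6.54% in any sugar library. TR8092__c0_g1_i2, also 1 of 3, made up 4.46%, 9.87% and 19.1% in the poplar libraries, against 97.6%, 97.7% and 96.7% in the control libraries (adjusted p = 0.00114). It made up 2.32%, 9.56% and 3.70% in switchgrass and at least 96.5% in every sugar library. In both genes the isoform was minor in 1 group and leading in the other.

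A change of the leading isoform was seen in 56 of the 1247 genes with tested isoforms. In these, 1 isoform led in all 3 poplar libraries and another in all 3 control libraries. An isoform called by the test was held by 33 of the 56, against 232 of the 1247. The 56 were chosen for a consistent change in the same 6 libraries that the test used. The larger part with a call follows from that choice and is no support. The same isoform led in all 3 poplar libraries in 887 of the 1247 genes, and in all 3 control libraries in 1010. The poplar isoform led in all 3 switchgrass libraries in 25 of the 56 and the control isoform in 6. In cellobiose the poplar isoform led in all 3 libraries in 7 genes and the control isoform in 34. In the glucose library they led in 6 and 49, and in all 3 maltose libraries in 2 and 18. Leading in 1 glucose library is an easier condition than leading in all 3, so the counts do not compare cultures. The third maltose library, with 37.9% of the 17631 genes tested for level listed at 0, enters the maltose counts and mean shares. Over the 366 called isoforms the mean share was nearer poplar than control for 297 in switchgrass (81.1%), 64 in cellobiose (17.5%), 46 in glucose (12.6%) and 88 in maltose (24.0%). The isoforms were chosen for their difference between poplar and control, which by itself places other libraries between those groups. The count of 366 was 94 to 104 without any 1 control library, 146 without the first poplar library, 216 without the second and 496 without the third.

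**Figure D5:**
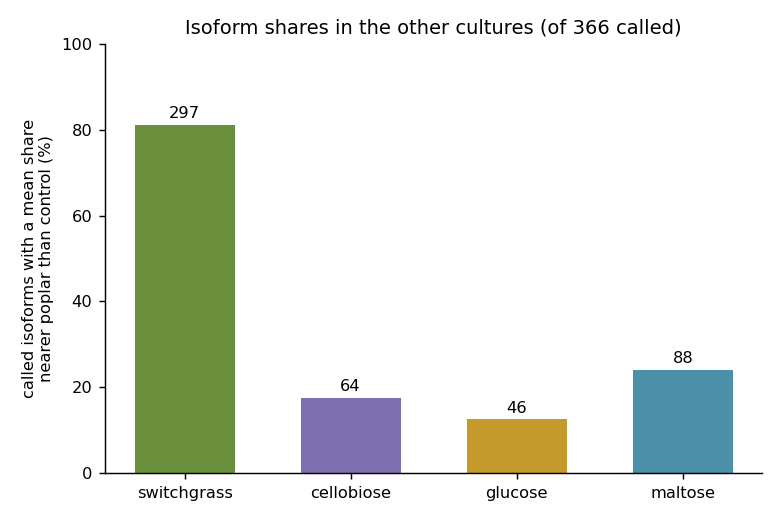
Share of the 366 called isoforms (%, vertical axis) whose mean share in the culture on the horizontal axis was nearer the poplar mean than the control mean, with the number of isoforms above each bar. Switchgrass stands at 81.1%, and the poly-A sugar cultures at 12.6% to 24.0%.

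The identifiers place genes of the assembly in numbered clusters, and 2943 clusters held at least 2 tested genes. In 89 clusters at least 2 genes were higher, in 406 at least 2 were lower, and in 20 a higher and a lower gene stood in the same cluster. Reads may be divided between such genes, which adds uncertainty to 339 of 836 higher genes, 1531 of 4157 lower genes and 6980 of all 17631 genes tested. Genes with more than 1 isoform were 24.6% of the higher and 25.2% of the lower genes, against 32.6% of all genes tested.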

How the data were processed

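RNA of 16 libraries of strain PB94 was measured, and the 3 poplar and 3 control libraries were compared. The authors deposited TPM per assembled transcript (45286 transcripts) in a pair of tables with identical values and different column names. Per the submitters' processing notes RSEM was among the tools; no version is stated, and the assembler, aligner and filters were not given in the sources used here. Every column summed to 1000000 within 0.87, so the table whose title speaks of counts was also treated as TPM. The libraries were placed by the column names of that table.

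Isoforms were summed to genes. Genes were tested with limma 3.58.1 (R 4.3.3) on log2(TPM + 1), with a filter of at least 1 TPM in at least 3 of the 6 libraries, on TPM as deposited and after median-of-ratios scaling. Poplar and switchgrass were compared in the same way, and isoform shares with limma on arcsine square roots. The scripts were tested on simulated data. With 3 libraries against 3 an exact test of 1 gene cannot give a p below 0.1, so none was run.

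Named genes were, in each direction, the first of all and the first above 0 in all 6 libraries by the gap between the groups, among genes above the median level called on both scalings. The comparison, lists and tests were chosen with earlier results of these data known. Same-numbered poplar and control libraries did not deviate together (correlations of 0.0541, -0.0748 and -0.0634), so no pairing was used. Alternatives were other pseudocounts, filters, sets of libraries, variance priors and column names, a replicate block, a test against a 1.5-fold change, transcripts in place of genes and each library left out.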

Additional observations from a re-analysis of the deposited data

Results flagged for a closer look

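Whether the difference from control differs between poplar and switchgrass is the direct comparison of those groups, and 1 gene passed it after scaling. TR7964__c0_g1 averaged 0.723 TPM in poplar and 91.4 TPM in switchgrass (n = 3 each, lower in all 3 poplar libraries), with a log2 difference of -5.41 ± 0.34 (limma adjusted p = 0.0231).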

How the results depend on the processing

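The 4 named genes kept their direction and their call in 64 of 68 alternatives. The other 4 were the second table's column names, under which the log2 differences were -10.16 for TR355__c0_g1, -11.20 for TR15410__c0_g1, 6.60 for TR17256__c0_g1 and 6.42 for TR5381__c0_g1. Under those names 642 of the 836 higher genes were called lower and 2662 of the 4157 lower genes higher. The count of 7487 genes called as deposited was 3513 in a fit to all 16 libraries, 4678 in a test against a 1.5-fold change and between 3579 and 11426 with 1 library left out, the highest without the third poplar library. In the same 3 settings the count of 7238 after scaling was 3980 (2591 higher, 1389 lower), 3537 and between 4107 and 9070, and the count of 4993 on both scalings was 1864 (590 higher, 1274 lower), 2506 and between 2494 and 6104. Without the third maltose library the fit to the other 15 gave 8402, 6995 (3244 higher, 3751 lower) and 4592, so the lower counts and the turned balance of the fit to all 16 rest on that library. A filter of 5 TPM gave 1671 higher and 3933 lower genes after scaling. Poplar against switchgrass (1 call) gave 0 calls by limma with a pseudocount of 0.1 (783 genes at an unadjusted p under 0.05), 25 as deposited, 3309 under the second names and 0 to 0 with 1 library left out (417 to 1460 genes at an unadjusted p under 0.05). The 366 isoforms were 151 of 520 with at least 20 TPM and between 94 and 496 with 1 library left out. Of the 151, 33 with a higher and 32 with a lower share were among the 366. The cause of the other shifts was not tested.

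The replicate number as a block gave 6422 genes as deposited, 5378 after scaling, 3885 on both scalings, 0 between poplar and switchgrass (758 at an unadjusted p under 0.05, limma) and 101 isoforms. Of the poplar libraries only the first correlated best with the control library of its own number. Depth is unknown, so zeros and low levels carry no limit of detection.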
